A study of Macaca mulatta with 10 samples.

Results

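The periphery of embryonic stem (ES) cell colonies at the second stage of in vitro differentiation, labelled IVDS2-P, was set against undifferentiated ES cells of the same line. The samples were chosen by their titles, which gave 2 IVDS2-P arrays and 2 ES arrays, 4 of the 10 arrays of the series, and 13191 genes were compared. All cells were ORMES6, one ES cell line of the rhesus macaque, so that no second genetic background was measured. The stated purpose was to induce liver-like foci in primate ES cells by co-culture with hESdF, by the series title a fibroblast-like cell type derived from human ES cells. IVDS2-P was RNA of the outer area of the colonies, IVDS2-C was RNA of the central foci, and IVDS2 was RNA of cells of that stage with no area named. The ES samples served as control and were grown on mouse embryonic fibroblast (MEF) feeders in serum replacement medium with basic fibroblast growth factor. A growth note on feeder culture and a note on the hESdF co-culture stand on every sample alike, ES cells included, and neither gives a day of harvest. The labels used here do not say how the areas were separated or whether feeder and hESdF cells were removed before RNA extraction, and in such bulk samples fewer cells of a type and less RNA per cell cannot be told apart.

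Primate ES cells are held in an undifferentiated state by transcription factors such as POU5F1, SOX2 and NANOG, together with fibroblast growth factor and activin-type signals. On leaving that state, the layer of cells that gives rise to ectoderm can turn towards neural plate, neural crest, surface epithelium or trophoblast- and amnion-like cells, with bone morphogenetic protein (BMP) and WNT signals weighing on the choice. Liver cells come from definitive endoderm, whose early regulators include SOX17, FOXA2 and GATA4.

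Values are log2 expression relative to the median of each probe set over the 10 arrays, so that 0 is that median and a value of -2 lies 4-fold below it. They show how arrays differ but no absolute level, so that genes cannot be ranked by level. A gene's value is the mean of its probe sets. Differences are IVDS2-P minus ES on the log2 scale with the standard error (SE) of a linear model fitted in limma over all 10 arrays. A gene counts as called where its p, adjusted by Benjamini-Hochberg over all 13191 genes, is under 0.05. The labels do not say that the repeats are separate cultures, so that p-values measure the spread between these arrays, which may be technical. The difference between the 2 arrays of a group had a standard deviation over genes of 0.249 in IVDS2-P, 0.295 in IVDS2-C, 0.263 in IVDS2 and 0.369 in ES cells. ES replicate 2 stood apart on probe sets for sequences the cells should not hold, with medians of 0.337 over 377 viral and 0.386 over 22 reporter probe sets, against -0.112 to 0.074 on all other arrays.

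In the colony periphery 833 genes rose (6.31% of those tested) and 616 fell (4.67%) relative to ES cells. These shares are the background for all list counts against ES cells below. In every called gene the IVDS2-P arrays lay wholly above or wholly below the ES arrays. The calls rest on these same values, so this is no separate support. The share of all tested genes without overlap was not counted. A change of at least 2-fold was seen in 339 rises and 175 falls, and of at least 4-fold in 88 rises and 20 falls. The median difference over all tested genes was -0.079, with 5% of genes below -0.57 and 5% above 0.73. The counts depended on single arrays. They were 359 rises and 271 falls without ES replicate 2, and 1287 rises and 1419 falls without ES replicate 1, the one fit of those tried in which falls outnumbered rises. They were 530 and 290 without IVDS2-P replicate 1, and 223 and 132 without IVDS2-P replicate 2. Of the called genes, 210 rises and 114 falls were called the same way whichever of the 4 arrays was left out. A fit of the 4 arrays alone called 466 rises and 286 falls.

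**Figure D1:**
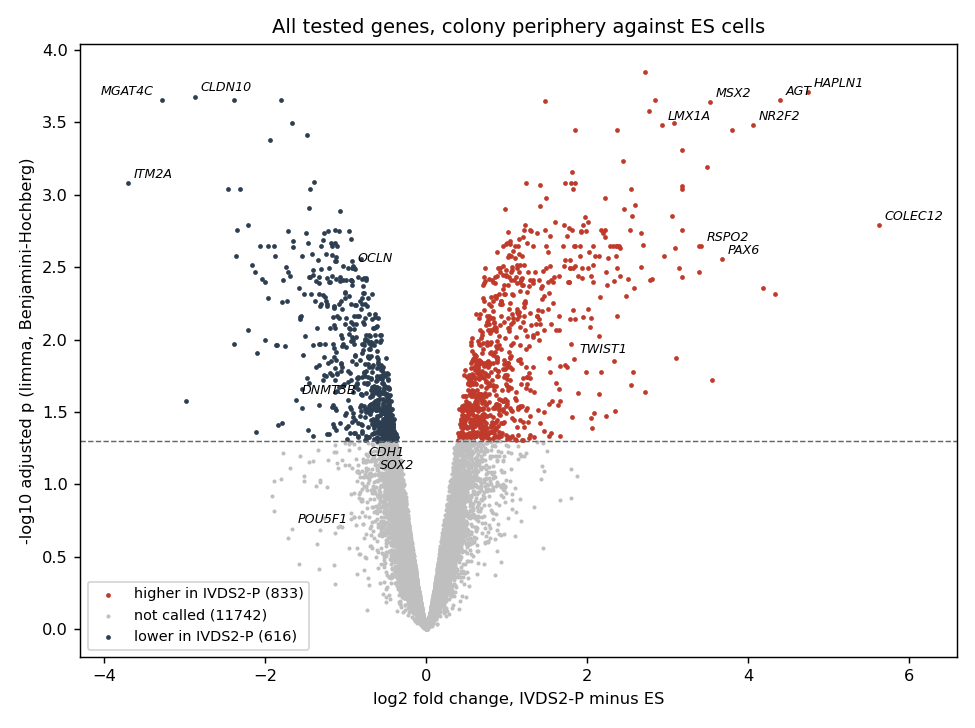
Each point is 1 of the 13191 genes. The x axis is the log2 difference IVDS2-P minus ES, the y axis is -log10 of the limma adjusted p, and the dashed line marks an adjusted p of 0.05. The 833 rises reach 5.63 for COLEC12, further from 0 than any of the 616 falls, of which ITM2A at -3.71 lies farthest out.

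The 20 largest rises ran from 5.63 for COLEC12 to 3.11 for LGI1. COLEC12, a scavenger receptor of the collectin family, read -0.14 and 0.99 on the IVDS2-P arrays, against -4.13 and -6.28 on the ES arrays. It rose by 5.63 ± 0.60 (49.5-fold, adjusted p = 0.00163). HAPLN1, which links hyaluronan to proteoglycans in the extracellular matrix, read -0.34 and 0.34 in IVDS2-P, against -4.90 and -4.59 in ES cells, a rise of 4.75 ± 0.27 (26.8-fold, adjusted p = 0.000196). The ES arrays of COLEC12 lay far apart, and in both genes the ES arrays were the lowest of the 8 arrays of ES cells and stage 2. NR2F2, an orphan nuclear receptor of developing mesenchyme and forebrain, read -0.72 and -0.27 in IVDS2-P, against -3.98 and -5.14 in ES cells (a rise of 4.06 ± 0.31, adjusted p = 0.000332). Its relative NR2F1 read 0.02 and 0.63, against -2.37 and -3.74 in ES cells (a rise of 3.38 ± 0.41, adjusted p = 0.00227). MMRN1, the platelet and endothelial protein multimerin, rose by 4.19 ± 0.63 (adjusted p = 0.00438) and DENND1B, a regulator of membrane traffic, by 3.80 ± 0.30 (adjusted p = 0.000358). Transcription factors further down the 20 largest rises were DACH1 (3.18 ± 0.45), EBF1 (3.18 ± 0.35) and TSHZ1 (3.17 ± 0.30). RASGRP1, an activator of RAS, and KCNK10, a potassium channel, rose by 3.49 ± 0.30 and 3.18 ± 0.26. These genes were also called whichever array was left out. TFPI, an inhibitor of coagulation, and LGI1, a secreted neuronal protein, rose by 3.55 ± 0.75 and 3.11 ± 0.60. Their ES arrays lay far apart, at -1.79 and -4.67 for TFPI and at -1.27 and -3.63 for LGI1. Their calls were lost on leaving out IVDS2-P replicate 1 (adjusted p = 0.0723 for TFPI and 0.0573 for LGI1) or IVDS2-P replicate 2 (adjusted p = 0.116 for TFPI and 0.086 for LGI1).

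The largest falls were smaller than the largest rises. ITM2A, a membrane protein first known from cartilage and T cells, read 0.40 and -0.43 in IVDS2-P, against 3.20 and 4.19 in ES cells, a fall of -3.71 ± 0.34 (13.1-fold, adjusted p = 0.000832). MGAT4C, a glycosyltransferase of N-glycan branching, read -0.36 and -0.85, against 2.72 and 2.63 in ES cells (-3.28 ± 0.22, adjusted p = 0.000223). CLDN10, a claudin of tight junctions, read 0.11 and -0.03, against 2.64 and 3.20 in ES cells (-2.87 ± 0.17, adjusted p = 0.00021). Each of these 3 genes lay within 1 of the series median on both IVDS2-P arrays and more than 2 above it on both ES arrays. JAZF1, a zinc finger cofactor, fell by 2.37 on the log2 scale, CYP2S1, a cytochrome P450, by 2.21, ECRG4, a secreted peptide precursor, by 2.16, KCTD8, a subunit of GABA-B receptors, by 2.06, and UGT8, which makes galactosylceramide, also fell by 2.04. These falls held whichever array was left out. ARHGAP36 read 2.47 and 0.09 in IVDS2-P, against 4.61 and 3.91 in ES cells, and its fall (-2.98 ± 0.68, adjusted p = 0.0264) was lost on leaving out either ES array (adjusted p of 0.0716 without the first and 0.0821 without the second) or IVDS2-P replicate 2 (adjusted p = 0.116). ITCH, a ubiquitin ligase, and SERPINB6, a protease inhibitor, fell by 2.46 and 2.32 on the log2 scale. Each rests on 1 probe set, and the values of the pair differed by at most 0.34 on any of the 10 arrays. The fall of PMAIP1, a mediator of p53-dependent cell death, of -1.97 ± 0.31 was lost without IVDS2-P replicate 2 (adjusted p = 0.0555).

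**Figure D2:**
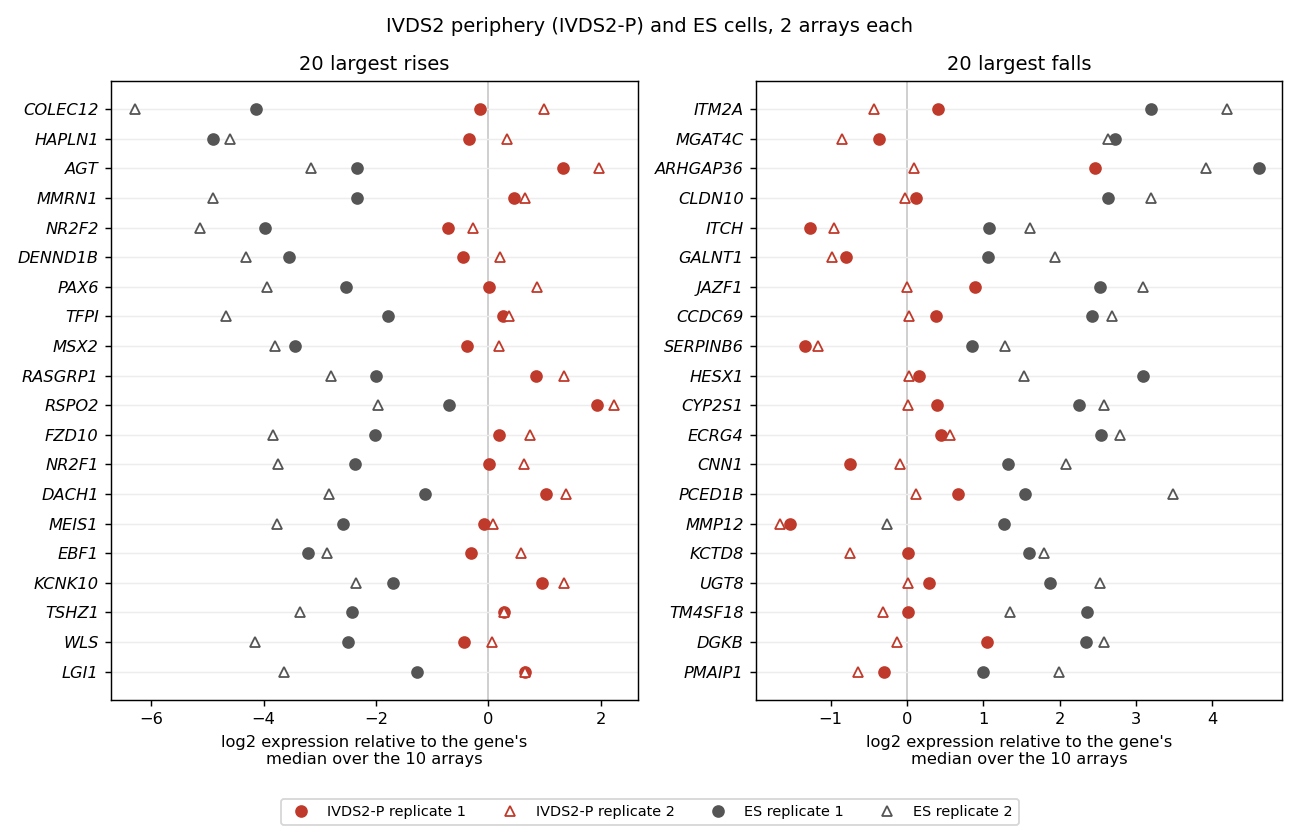
The left panel shows the 20 largest rises and the right panel the 20 largest falls. The x axis is log2 expression relative to the median of the 10 arrays, with filled circles for replicate 1 and open triangles for replicate 2, IVDS2-P in red and ES in grey. The genes were chosen for having both red points on one side of both grey points. ES replicates spread most for TFPI and MMRN1.

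Among 23 measured genes of pluripotent cells, 1 rose (4.35%) and 8 fell (34.8%), and their median difference was -0.64, against -0.079 over all genes. NR5A2, a nuclear receptor that binds the POU5F1 promoter in mouse ES cells, read 0.98 and 0.26 in IVDS2-P, against 2.49 and 2.68 in ES cells (-1.96 ± 0.24, adjusted p = 0.00227). CD9, a tetraspanin on the surface of ES cells, fell by 1.19 on the log2 scale (adjusted p = 0.00401). It read 0.05 and 0.24 in ES cells, and -0.05 and 0.43 in the colony centre (IVDS2-C). PRDM14, a repressor of differentiation genes in ES cells and chosen after its values were seen, fell by 1.08 (adjusted p = 0.00397). These 3 falls held whichever array was left out. DNMT3B, a DNA methyltransferase of early embryos, read 1.29 and 0.90 in IVDS2-P, against 2.68 and 2.76 in ES cells. Its fall of -1.62 ± 0.37 (adjusted p = 0.0261) was lost when any 1 of the 4 arrays was left out (adjusted p = 0.0502 to 0.17, the lowest without ES replicate 1 and the highest without IVDS2-P replicate 2). Without ES replicate 2 the list had 5 falls, and without either IVDS2-P array 4.

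The 3 core factors did not move alike. POU5F1 read 1.85 and 1.10 in IVDS2-P, against 2.98 and 3.30 in ES cells, a difference of -1.66 ± 0.79 that was not called (adjusted p = 0.203). Its IVDS2-C arrays lay far apart, at -0.50 and -3.38, and enter the common spread. In the fit of the 4 IVDS2-P and ES arrays alone the same difference was called lower (adjusted p = 0.0162). SOX2, shared by ES cells and neural plate, read 1.27 and 1.11 in IVDS2-P, against 1.72 and 1.94 in ES cells (-0.64 ± 0.21, adjusted p = 0.0859). NANOG went the other way, at -0.30 and -0.13 in IVDS2-P, against -0.70 and -1.37 in ES cells. Its rise of 0.83 ± 0.19 (adjusted p = 0.0299) rests on 1 probe set and was lost on leaving out ES replicate 2 (adjusted p = 0.0894), IVDS2-P replicate 1 (adjusted p = 0.0772) or IVDS2-P replicate 2 (adjusted p = 0.183). Of all 6 markers used to check the ES label, POU5F1, SOX2, DNMT3B, SALL4 and DPPA4 were higher in both ES arrays than the median of the series, and NANOG was below it in both. DPPA4, another marker of pluripotent cells, read 1.47 and 1.06 in IVDS2-P, against 2.77 and 3.14 in ES cells (-1.69 ± 0.53, adjusted p = 0.0769), and SALL4 differed by -0.53 ± 0.36 (adjusted p = 0.358).

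Of 29 measured genes of the neural plate and of neurons 11 rose and 1 fell, against 6.31% and 4.67% of all genes. PAX6, a regulator of neural plate and eye, read 0.01 and 0.87 in IVDS2-P, against -2.53 and -3.94 in ES cells (a rise of 3.67 ± 0.48, 12.8-fold, adjusted p = 0.00279). EMX2, a factor of the dorsal forebrain, read 1.80 and 1.86, against -0.70 and -1.74 in ES cells (3.05 ± 0.32, adjusted p = 0.00141). LMX1A, which marks the roof plate and the ventral midbrain, read 0.00 and 0.73, against -2.42 and -2.70 in ES cells (2.93 ± 0.22, adjusted p = 0.000332). Neither the IVDS2-P nor the ES arrays of these 3 genes came within 2 log2 units of the other group. STMN2, a protein of growing neurites, read -0.97 and 0.74 in IVDS2-P, against -2.49 and -3.17 in ES cells, and its rise of 2.72 ± 0.60 was lost without ES replicate 2 (adjusted p = 0.137) and without IVDS2-P replicate 2 (adjusted p = 0.153). HESX1, a repressor of the anterior neural plate and pituitary, was the member that fell, at 0.16 and 0.03 in IVDS2-P, against 3.09 and 1.54 in ES cells (-2.22 ± 0.39, adjusted p = 0.00861, and 0.0705 without IVDS2-P replicate 2). On leaving out ES replicate 1 the list had 10 rises, on leaving out ES replicate 2 it had 6, and on leaving out IVDS2-P replicate 1 or 2 it had 7 or 5. The 5 that held throughout were PAX6, EMX2 and LMX1A with ELAVL4, an RNA-binding protein of neurons (2.40), and SOX11, a factor of immature neurons (1.22), the last pair chosen after their values were seen.

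Among 18 measured genes of neural crest and the neural plate border, 7 rose (38.9%) and 1 fell (5.56%). MSX2, a homeobox factor downstream of BMP signals, read -0.37 and 0.18 in IVDS2-P, against -3.44 and -3.80 in ES cells (3.52 ± 0.25, 11.5-fold, adjusted p = 0.000229). MSX1, its close relative, read -0.07 and 0.73, against -2.72 and -2.77 in ES cells (3.08 ± 0.23, adjusted p = 0.00032). PAX3, a factor of dorsal neural tube and crest, read 0.12 and 0.58, against -2.17 and -2.67 in ES cells (2.77 ± 0.20, adjusted p = 0.000264). CRABP1, a carrier of retinoic acid inside cells, rose by 2.78 ± 0.40 (adjusted p = 0.00385). Of the 7 rises 6 held whichever array was left out, the others being TFAP2B (1.77) and SOX9 (1.72), both chosen after their values were seen. The member whose call depended on an array was TWIST1, a mesenchymal and cranial crest factor. It read 2.34 and 1.41 in IVDS2-P, against -0.44 and 0.52 in ES cells (1.83 ± 0.35, adjusted p = 0.0136, and 0.0686 without IVDS2-P replicate 1). ERBB3, chosen after its value was seen, was the member that fell (-0.89, adjusted p = 0.0211), a call lost without ES replicate 2, IVDS2-P replicate 1 or IVDS2-P replicate 2 (adjusted p = 0.0592 to 0.148). Without ES replicate 1 the list had 4 falls.

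**Figure D3:**
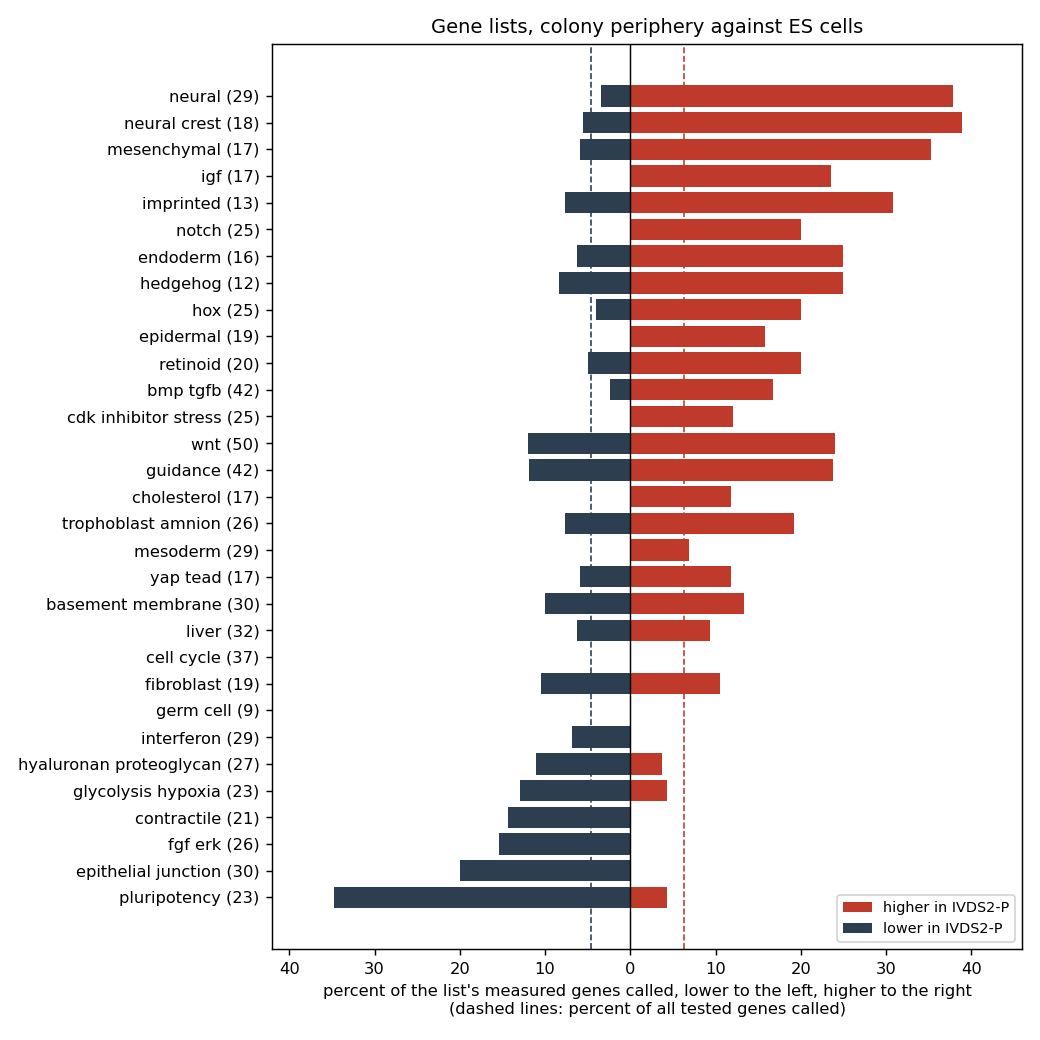
Each bar is a gene list with its number of measured genes. The x axis is the percent of those genes called higher in IVDS2-P (red, to the right) or lower (dark, to the left), and the dashed lines mark 6.31% and 4.67% over all tested genes. Neural and neural crest lists reach farthest to the right and the pluripotency list farthest to the left, and the cell cycle list has no bar.

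Genes that set position along the body axis gave a mixed count. Of 25 measured HOX genes and their MEIS and CDX partners and regulators, 5 rose (20%) and 1 fell (4%). MEIS1, a homeobox partner of HOX proteins, read -0.08 and 0.08 in IVDS2-P, against -2.59 and -3.76 in ES cells (3.18 ± 0.30, adjusted p = 0.000874). HOXA2, which patterns the hindbrain, read 1.35 and 1.05, against -0.71 and -1.60 in ES cells (2.35 ± 0.30, adjusted p = 0.00265). MEIS2 rose by 2.05 ± 0.34 (adjusted p = 0.00712, and 0.0593 without IVDS2-P replicate 2). The fall of CDX4, a regulator of posterior HOX genes, of -1.11 ± 0.24 was lost when any 1 of the 4 arrays was left out (adjusted p = 0.0577 to 0.152, the highest without IVDS2-P replicate 2), and without that last array the list had 3 rises. Among 20 genes of retinoid handling and response, 4 rose (20%), NR2F2 and NR2F1 among them, and 1 fell (5%). NRIP1, a corepressor of nuclear receptors, rose by 1.41 ± 0.25 (adjusted p = 0.01, and 0.0914 without IVDS2-P replicate 2). DHRS3, a retinal reductase, fell by 0.88 on the log2 scale (adjusted p = 0.0149), which was lost without ES replicate 2 (adjusted p = 0.0833), IVDS2-P replicate 1 (adjusted p = 0.0738) or IVDS2-P replicate 2 (adjusted p = 0.0826). The retinoid list had 2 rises without IVDS2-P replicate 2 and 2 falls without ES replicate 1.

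In the WNT pathway 12 of 50 measured genes rose (24%) and 6 fell (12%), with a median difference of -0.01. Among secreted amplifiers, RSPO2 read 1.93 and 2.23 in IVDS2-P, against -0.71 and -1.96 in ES cells (3.41 ± 0.42, 10.7-fold, adjusted p = 0.00227). RSPO3, of the same R-spondin family, read 0.14 and 0.83, against -1.69 and -2.71 in ES cells (2.69 ± 0.32, adjusted p = 0.0022). FZD10, a frizzled receptor, read 0.20 and 0.73, against -2.01 and -3.83 in ES cells (3.38 ± 0.47, adjusted p = 0.00341). WLS, outside the list and among the 20 largest rises, carries WNT proteins to the cell surface and rose by 3.14 ± 0.43 (adjusted p = 0.00322). Of genes chosen after their values were seen, the ligand WNT1 rose by 1.47 (adjusted p = 0.00176) and AXIN2, a feedback inhibitor and a common target of the pathway, by 1.94 (adjusted p = 0.00163). These 6 rises held whichever array was left out. Secreted inhibitors went both ways. DKK1, a blocker of the LRP coreceptors, read 0.73 and 1.25 in IVDS2-P, against -0.88 and -1.82 in ES cells, and its rise of 2.34 ± 0.56 was lost without ES replicate 2 (adjusted p = 0.179), IVDS2-P replicate 1 (adjusted p = 0.0748) or IVDS2-P replicate 2 (adjusted p = 0.189). SFRP1, a frizzled-related inhibitor, read 1.10 and 0.54 in IVDS2-P, against 2.08 and 2.48 in ES cells, and its fall of -1.47 ± 0.38 (adjusted p = 0.042) was lost when any 1 of the 4 arrays was left out (adjusted p = 0.0503 to 0.248, the highest without IVDS2-P replicate 2). On leaving out ES replicate 2 the list had 6 rises and 1 fall, on leaving out IVDS2-P replicate 1 it had 10 and 2, and on leaving out IVDS2-P replicate 2 it had 5 and 0.

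BMP and TGF-beta genes showed 7 rises (16.7%) and 1 fall (2.38%) among 42 measured. BMP2, a ligand of surface ectoderm and neural border, read 0.02 and 0.73 in IVDS2-P, against -1.70 and -1.89 in ES cells (2.17 ± 0.24, adjusted p = 0.00174). BMPER, a secreted binder of BMPs, read 1.20 and 1.37, against -0.34 and -0.48 in ES cells (1.70 ± 0.21, adjusted p = 0.00226). The ligand BMP7 rose by 1.12 ± 0.20 (adjusted p = 0.00966, and 0.0666 without IVDS2-P replicate 2). Without ES replicate 2 the list had 4 rises and without IVDS2-P replicate 2 it had 2, with 0 falls in either fit and 2 falls without ES replicate 1. In the Notch pathway 5 of 25 measured genes rose (20%) and 0 fell. They included the receptor NOTCH2 (1.30 ± 0.14, adjusted p = 0.00177), the coactivator MAML2 (1.17 ± 0.18, adjusted p = 0.0046), the ubiquitin ligase DTX4 (2.22 ± 0.22, adjusted p = 0.00106) and the target repressor HEY1 (1.76 ± 0.26, adjusted p = 0.00401). All 4 held whichever array was left out.

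For hedgehog signalling 12 genes were measured, of which 3 rose (25%) and 1 fell (8.33%). The rises were all membrane proteins that bind hedgehog ligands. BOC read 0.18 and 0.52 in IVDS2-P, against -1.28 and -1.61 in ES cells (1.79 ± 0.17, adjusted p = 0.000832). CDON read -0.11 and 0.22, against -1.14 and -1.50 in ES cells (1.37 ± 0.16, adjusted p = 0.00184). GAS1 read -0.25 and 0.48, against -1.25 and -1.38 in ES cells (1.43 ± 0.21, adjusted p = 0.00428). GLI1, a transcription factor and target of the pathway, went down in the same samples, at 0.33 and -0.04 in IVDS2-P, against 1.23 and 1.09 in ES cells (-1.02 ± 0.15, adjusted p = 0.00467). All 4 calls survived the loss of any 1 array, and without ES replicate 1 the list had 3 falls.

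The FGF and ERK list had 0 rises and 4 falls among 26 measured genes, and a median difference of -0.28. It had 11 falls and 1 rise without ES replicate 1 (median -0.46), and 2 falls without ES replicate 2 (median -0.10) or IVDS2-P replicate 2 (median -0.30). ETV4, an ETS factor induced by FGF signals, read 0.49 and 0.05 in IVDS2-P, against 1.88 and 1.97 in ES cells (-1.66 ± 0.21, adjusted p = 0.00231). FGF12, an intracellular FGF homologue, read 0.28 and 0.00, against 1.36 and 1.16 in ES cells (-1.12 ± 0.15, adjusted p = 0.00288). ETV1, a relative of ETV4, fell by 1.12 on the log2 scale (adjusted p = 0.0121, and 0.0634 without ES replicate 2 or 0.103 without IVDS2-P replicate 2). The feedback inhibitor SPRY1 fell by 0.81 (adjusted p = 0.0309, and 0.108 to 0.159 without ES replicate 2, IVDS2-P replicate 1 or IVDS2-P replicate 2). FGF4, a ligand made by ES cells that stands in the pluripotency list, read 0.14 and 0.03 in IVDS2-P, against 0.99 and 2.87 in ES cells, and its fall of -1.85 ± 0.47 was lost without IVDS2-P replicate 1 (adjusted p = 0.116) or replicate 2 (adjusted p = 0.189). Basic fibroblast growth factor was a component of the ES culture medium per the labels, and the medium of the IVDS2 samples is not given apart from it.

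Of 42 axon guidance genes 10 rose (23.8%) and 5 fell (11.9%). SLIT2, a repellent of growing axons, rose by 1.82 ± 0.25 (adjusted p = 0.00319). The ephrin receptors EPHA4 (1.83 ± 0.30, adjusted p = 0.00625) and EPHB1 (1.44 ± 0.23, adjusted p = 0.00636) also rose, and both calls were lost without IVDS2-P replicate 2 (adjusted p = 0.0604 and 0.0605). The list had 3 rises and 0 falls without that array, 6 rises and 3 falls without ES replicate 2, and 7 rises and 3 falls without IVDS2-P replicate 1. Of 13 imprinted genes 4 rose and 1 fell, a fall not called without ES replicate 2 or IVDS2-P replicate 2, and 2 fell without ES replicate 1. PEG3, a paternally expressed zinc finger protein, read -0.51 and 0.10 in IVDS2-P, against -2.42 and -3.07 in ES cells (2.54 ± 0.24, adjusted p = 0.00091), and SGCE, a paternally expressed sarcoglycan, rose by 0.97 ± 0.15 (adjusted p = 0.00485). PLAGL1, an imprinted zinc finger factor, rose by 2.23 ± 0.55 (adjusted p = 0.0336), which was lost without ES replicate 2 (adjusted p = 0.104), IVDS2-P replicate 1 (adjusted p = 0.0598) or IVDS2-P replicate 2 (adjusted p = 0.211). Of 17 genes of insulin-like growth factor signalling 4 rose (23.5%) and 0 fell. The binding protein IGFBP5 led them, at -0.03 and 0.03 in IVDS2-P, against -1.07 and -1.01 in ES cells (1.04 ± 0.12, adjusted p = 0.0021). It was the only rise of that list without ES replicate 2 and also without IVDS2-P replicate 2, and without ES replicate 1 the list had 2 falls.

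Among 30 measured genes of epithelial junctions 0 rose and 6 fell (20%), with a median difference of -0.22. OCLN, a tight junction protein, read -1.05 and -1.05 in IVDS2-P, against -0.20 and -0.06 in ES cells (-0.92 ± 0.12, adjusted p = 0.00319). CLDN10 and OCLN were the falls that held whichever array was left out. ESRP2, an epithelial splicing regulator, read -1.50 and -1.13, against -0.34 and 0.07 in ES cells (-1.18 ± 0.23, adjusted p = 0.0142). CDH3, placental cadherin, read -1.84 and -1.23, against -0.70 and -0.50 in ES cells (-0.93 ± 0.22, adjusted p = 0.0301). Both were lost without ES replicate 2 (adjusted p = 0.0932 for ESRP2 and 0.145 for CDH3) and without IVDS2-P replicate 1 (adjusted p = 0.0801 for ESRP2 and 0.145 for CDH3). CDH1, epithelial cadherin, read -1.33 and -0.96 in IVDS2-P, against -0.72 and 0.00 in ES cells, and was not called (-0.78 ± 0.24, adjusted p = 0.0697), though it was lower without ES replicate 1 (-1.14, adjusted p = 0.0124). On leaving out ES replicate 1 the list had 11 falls, on leaving out ES replicate 2 it had 3, and on leaving out IVDS2-P replicate 1 or 2 it had 3 or 4. Keratin KRT8 of simple epithelia read -1.45 and -0.84, against -1.22 and -1.57 in ES cells (0.25 ± 0.23, adjusted p = 0.495).

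Mesenchymal genes gave 6 rises (35.3%) and 1 fall (5.88%) among 17 measured. CDH11, a cadherin of mesenchyme and migrating crest, read 0.93 and 1.73 in IVDS2-P, against -0.69 and -1.82 in ES cells (2.58 ± 0.39, adjusted p = 0.00438), and was the rise that held whichever array was left out. ZEB2, a repressor of epithelial genes, read 1.17 and 1.19, against 0.11 and -1.92 in ES cells, and its rise of 2.08 ± 0.50 was lost without IVDS2-P replicate 1 (adjusted p = 0.109) or replicate 2 (adjusted p = 0.158). The intermediate filament VIM rose by 1.16 ± 0.29 (adjusted p = 0.0361, and 0.145 without ES replicate 2 or 0.235 without IVDS2-P replicate 2). PRRX1, a homeobox factor of limb and facial mesenchyme, rose by 1.14 ± 0.30 (adjusted p = 0.0454, and 0.0855 to 0.199 without ES replicate 1, ES replicate 2 or IVDS2-P replicate 1). On leaving out ES replicate 2 the list had 2 rises, and on leaving out IVDS2-P replicate 1 or 2 it had 3 or 2. Its fall was called in none of these 3 fits.

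Fibroblasts are the cell type of the feeders, and hESdF cells are described as fibroblast-like, so their markers were checked. Of 19 measured fibroblast genes 2 rose (10.5%) and 2 fell (10.5%), against 6.31% and 4.67% of all genes. The median value of the list was -0.12 and -0.14 on the IVDS2-P arrays, against -0.09 and -0.06 on the ES arrays. Of 6 defining markers measured, THY1, a surface glycoprotein of fibroblasts and also of ES cells, fell by 0.94 on the log2 scale (adjusted p = 0.00385). The interstitial collagens COL1A1 (-0.71 ± 0.24, adjusted p = 0.0942), COL1A2 (0.31 ± 0.16, adjusted p = 0.237) and COL3A1 (-0.32 ± 0.17, adjusted p = 0.242) were not called. Nor were the matrix proteoglycans DCN (0.08 ± 0.16, adjusted p = 0.767) and LUM (-0.05 ± 0.21, adjusted p = 0.892). The probes are macaque, and the signal that mouse or human transcripts give on them was not tested. FBN1, a microfibril protein, and COL5A2, a fibrillar collagen, rose by 1.02 ± 0.17 and 0.93 ± 0.15, and both calls were lost without IVDS2-P replicate 2 (adjusted p = 0.0645 and 0.0698). That fit left 0 rises and 1 fall in the list, 1 fall was left without IVDS2-P replicate 1, and 3 falls were called without ES replicate 2.

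Some trophoblast and amnion genes rose against ES cells, but most were not called. Of 26 measured, 5 rose (19.2%) and 2 fell (7.69%) against ES cells, with a median difference of -0.05. Neither fall was called without ES replicate 2, IVDS2-P replicate 1 or IVDS2-P replicate 2, in the last of which 3 rises were left, and 1 fall was left without ES replicate 1. TFAP2A, a factor of surface ectoderm and trophoblast, read -1.03 and -0.88 in IVDS2-P, against -3.07 and -2.51 in ES cells (1.84 ± 0.23, adjusted p = 0.00227). GABRP, a GABA receptor subunit abundant in amnion, read -2.22 and -2.40, against -4.32 and -3.87 in ES cells (1.79 ± 0.23, adjusted p = 0.00281). VGLL1, a TEAD cofactor of trophoblast, read -2.83 and -1.90, against -4.18 and -3.83 in ES cells (1.64 ± 0.29, adjusted p = 0.00856). The rises of these 3 held whichever array was left out. GATA3 rose by 1.39 ± 0.33 (adjusted p = 0.0306, and 0.0808 without ES replicate 1 or 0.208 without IVDS2-P replicate 2). TP63, a master regulator of stratified epithelium, read -1.53 and -1.44, against -2.40 and -2.32 in ES cells (0.87 ± 0.14, adjusted p = 0.00514, and 0.0554 without IVDS2-P replicate 2). It also stands among the 19 epidermal genes, of which 3 rose and 0 fell, with GRHL3, a grainyhead factor of surface ectoderm, at 1.17 ± 0.17 (adjusted p = 0.00385). The epidermal list had 1 rise without IVDS2-P replicate 2 and 2 without any other 1 of the 4 arrays, and 1 fall without ES replicate 1. CDX2, a trophectoderm and hindgut factor, differed by -0.26 ± 0.13 (adjusted p = 0.211).

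Hepatic and endodermal genes were checked because liver-like foci were the stated aim of the culture. Of 32 measured liver genes 3 rose (9.38%) and 2 fell (6.25%), against 6.31% and 4.67% over all genes. Neither liver fall was called without ES replicate 2, IVDS2-P replicate 1 or IVDS2-P replicate 2, and 6 were called without ES replicate 1. AGT, the liver's angiotensin precursor, read 1.33 and 1.97 in IVDS2-P, against -2.34 and -3.16 in ES cells, and rose by 4.40 ± 0.29 (21.1-fold, adjusted p = 0.000223). HP, the plasma haemoglobin binder haptoglobin, read 0.96 and 1.51, against -0.07 and -0.63 in ES cells (1.58 ± 0.23, adjusted p = 0.00372). Both calls held whichever array was left out. The rise of MTTP, which loads lipid onto apolipoprotein B, was lost without ES replicate 2, IVDS2-P replicate 1 or IVDS2-P replicate 2 (adjusted p = 0.178, 0.128 and 0.209). The 5 defining hepatic markers measured gave no call. They were AFP (-0.04 ± 0.12, adjusted p = 0.835), SERPINA1 (-0.19 ± 0.12, adjusted p = 0.299), APOB (-0.11 ± 0.15, adjusted p = 0.653), FGB (0.14 ± 0.85, adjusted p = 0.926) and APOA1 (-1.27 ± 0.55, adjusted p = 0.172). Among 16 endoderm genes 4 rose (25%) and 1 fell. Without ES replicate 2 the endoderm list had 2 rises and 0 falls, without IVDS2-P replicate 2 it had 1 and 0, and without ES replicate 1 it had 3 and 2. CXCR4, a chemokine receptor of endoderm and of other migrating cells, rose by 2.37 ± 0.39 (adjusted p = 0.0069, and 0.0681 without IVDS2-P replicate 2), and HHEX, an early liver factor, fell by 0.92 on the log2 scale (adjusted p = 0.00963, and 0.0531 without ES replicate 2 or 0.0888 without IVDS2-P replicate 2). SOX17 (-0.20 ± 0.31), FOXA2 (-0.36 ± 0.12), GATA4 (-0.15 ± 0.14) and GATA6 (1.10 ± 0.56) were not called (adjusted p = 0.69, 0.0982, 0.502 and 0.23), nor was TBXT, the primitive streak factor brachyury (-0.18 ± 0.12, adjusted p = 0.351). In the mesoderm list 2 of 29 genes rose and 0 fell, with 0 rises and 6 falls without ES replicate 1, 1 rise without ES replicate 2, 3 rises without IVDS2-P replicate 1 and 0 calls without IVDS2-P replicate 2.

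Of 21 contractile genes 0 rose and 3 fell (14.3%, against 4.67% of all genes), with 1 fall without ES replicate 2 and 2 without IVDS2-P replicate 2. CNN1, the smooth muscle protein calponin, read -0.75 and -0.09 in IVDS2-P, against 1.33 and 2.09 in ES cells (-2.12 ± 0.29, adjusted p = 0.00341), and its call held whichever array was left out. TGFB1I1, a focal adhesion protein, fell by 1.57 (adjusted p = 0.00725, and 0.0593 without ES replicate 2), and the smooth muscle actin ACTG2 by 1.15 (adjusted p = 0.0079, and 0.058 without ES replicate 2 or 0.0743 without IVDS2-P replicate 2). Of 23 genes of glycolysis and hypoxia 1 rose and 3 fell (13%), with 0 falls without ES replicate 2 or IVDS2-P replicate 1, 1 without IVDS2-P replicate 2 and 5 without ES replicate 1, the rise being PFKFB3, which makes the activator of glycolysis fructose 2,6-bisphosphate (1.85 ± 0.23, adjusted p = 0.00227). In the list of cyclin-dependent kinase inhibitors and stress genes 3 of 25 rose and 0 fell (4 and 3 without ES replicate 1, 2 and 0 without ES replicate 2, 1 and 0 without IVDS2-P replicate 2), with DDIT4, an inhibitor of mTOR signalling, at 1.16 ± 0.17 (adjusted p = 0.00399). Of 17 genes around YAP and TEAD 2 rose and 1 fell, with 3 falls without ES replicate 1 and 0 when any other of the 4 arrays was left out. YAP1, the coactivator of TEAD factors, read 0.62 and 0.83 in IVDS2-P, against -0.03 and -0.18 in ES cells (0.83 ± 0.12, adjusted p = 0.00399). Of 37 cell cycle genes limma called 0 in the fit of all arrays and 0 in the fit of the 4 arrays alone, and 9 of the 37 had an unadjusted p under 0.05. Without ES replicate 1 it called 1 rise and 1 fall. The median difference of these 37 genes was -0.26. In the interferon list 0 of 29 rose and 2 fell, IFITM1 (-1.75 ± 0.33, adjusted p = 0.0111) and TRIM22 (-1.15 ± 0.30, adjusted p = 0.0404), both of them lost without ES replicate 2 (adjusted p = 0.0822 and 0.148) and without IVDS2-P replicate 2 (adjusted p = 0.0976 and 0.243). TRIM22 was lost without ES replicate 1 or IVDS2-P replicate 1 as well. In the fit of the 4 IVDS2-P and ES arrays alone 2 of the 29 interferon genes rose and 3 fell. The IVDS2-C arrays, with list medians of 0.20 and 1.70, enter the common spread of the fit of all arrays.

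The periphery was then set against the central foci of the same stage, which asks whether a change from ES cells was shared by both areas. IVDS2-P and IVDS2-C are each compared with the same ES arrays, so that the direct difference between them is the test. In IVDS2-P 521 genes were higher (3.95%) and 744 lower (5.64%) than in IVDS2-C. These counts were 57 and 317 without IVDS2-C replicate 2, and 792 and 820 without IVDS2-C replicate 1. With an IVDS2-P array left out they were 77 and 271 (replicate 1) or 101 and 429 (replicate 2). Among trophoblast and amnion genes 0 of 26 were higher and 20 lower in the periphery, with a median of -1.89. With 1 array left out 14 to 19 of them were still lower. GABRP read -2.22 and -2.40 in IVDS2-P, against 2.02 and 2.73 in IVDS2-C (-4.69 ± 0.23, adjusted p = 7.07e-05). GATA3 read -2.49 and -1.72, against 1.21 and 1.71 in IVDS2-C (-3.57 ± 0.33, adjusted p = 0.000759). BNC1, a factor of basal keratinocytes, read -2.77 and -2.47, against 1.97 and 2.16 in IVDS2-C (-4.68 ± 0.30, adjusted p = 0.000183), and in the periphery it did not differ from ES cells beyond the test (0.59 ± 0.30, adjusted p = 0.231).

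Epithelial junction genes were lower in the periphery than in the centre for 20 of 30, and higher for 0, with a median of -0.83. That count was 10 when IVDS2-C replicate 2 was dropped, and 11 or 13 when IVDS2-P replicate 1 or 2 was. For OCLN the values were -1.05 and -1.05 in IVDS2-P, against -0.07 and 0.22 in IVDS2-C (-1.13 ± 0.12, adjusted p = 0.0014). CDH1 was lower too (-1.20 ± 0.24, adjusted p = 0.0172), as was KRT8 (-1.19 ± 0.23, adjusted p = 0.0162), both of them lost without IVDS2-C replicate 2 (adjusted p = 0.124 and 0.0886) or IVDS2-P replicate 1 (adjusted p = 0.123 and 0.11). CDH3 lay below both ES cells and the centre in the periphery, at -1.84 and -1.23, against 0.06 and 0.20 in IVDS2-C (-1.66 ± 0.22, adjusted p = 0.00287). Interferon-induced genes were lower for 13 of 29, with a median of -1.29, but for 2 without IVDS2-P replicate 1, 5 without IVDS2-P replicate 2, 22 without IVDS2-C replicate 1 and 0 in the fit of the 4 arrays alone. IFIT1, which binds viral RNA, read 0.22 and -0.29 in IVDS2-P, against 3.36 and 6.25 in IVDS2-C (-4.84 ± 0.71, adjusted p = 0.00449). The 2 IVDS2-C arrays were far apart in these genes, with list medians of 0.20 and 1.70, against -0.17 and -0.31 in IVDS2-P. CXCL10, an interferon-induced chemokine, and IFI27 were lower by -3.98 ± 0.66 and -3.93 ± 0.61, and lost their calls without IVDS2-P replicate 1 (adjusted p = 0.0663 and 0.0501). In that 4-array fit IFIT1 (adjusted p = 0.0544), IFIT3 (adjusted p = 0.0532), CXCL10 (adjusted p = 0.0685) and IFI27 (adjusted p = 0.0633) were not called.

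Several pluripotency genes were higher in the periphery than in the centre, and CD9 was lower (-1.24 ± 0.17, adjusted p = 0.00388). Of 23 pluripotency genes 7 were higher in IVDS2-P than in IVDS2-C and 1 lower, with 4 higher without IVDS2-C replicate 2 or IVDS2-P replicate 2, 2 without IVDS2-P replicate 1 and 3 in the 4-array fit. SOX2 read 1.27 and 1.11 in IVDS2-P, against -0.01 and -0.56 in IVDS2-C (1.47 ± 0.21, adjusted p = 0.00416). DNMT3B read 1.29 and 0.90, against -0.60 and -1.62 in IVDS2-C (2.21 ± 0.37, adjusted p = 0.00794, and 0.0692 without IVDS2-P replicate 1). POU5F1 was higher by 3.41 ± 0.79 (adjusted p = 0.0305), but without IVDS2-C replicate 2, the array at -3.38, the difference was 1.97 and not called (adjusted p = 0.101), and the call was also lost without IVDS2-P replicate 1 (adjusted p = 0.168) or replicate 2 (adjusted p = 0.0852). SFRP2, a secreted frizzled-related protein, read 1.05 and 1.28 in IVDS2-P, against -0.96 and -1.99 in IVDS2-C (2.64 ± 0.29, adjusted p = 0.00148), and differed from ES cells by -0.11 ± 0.29 (adjusted p = 0.817). NPTX2, a secreted neuronal pentraxin, differed from the centre by 2.88 ± 0.34 (adjusted p = 0.00199) and from ES cells by -0.34 ± 0.34 (adjusted p = 0.534). RGS20, a regulator of G protein signals, was higher than in the centre by 2.87 ± 0.28 (adjusted p = 0.000895), and against ES cells differed by -0.96 ± 0.28 (adjusted p = 0.0581). Without ES replicate 2 it was called lower than in ES cells (-1.41, adjusted p = 0.0194). SPP1, the secreted phosphoprotein osteopontin, was higher by 2.93 ± 0.78 (adjusted p = 0.0488), which was lost on leaving out IVDS2-C replicate 2 (adjusted p = 0.35), IVDS2-P replicate 1 (adjusted p = 0.253) or IVDS2-P replicate 2 (adjusted p = 0.0789).

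**Figure D4:**
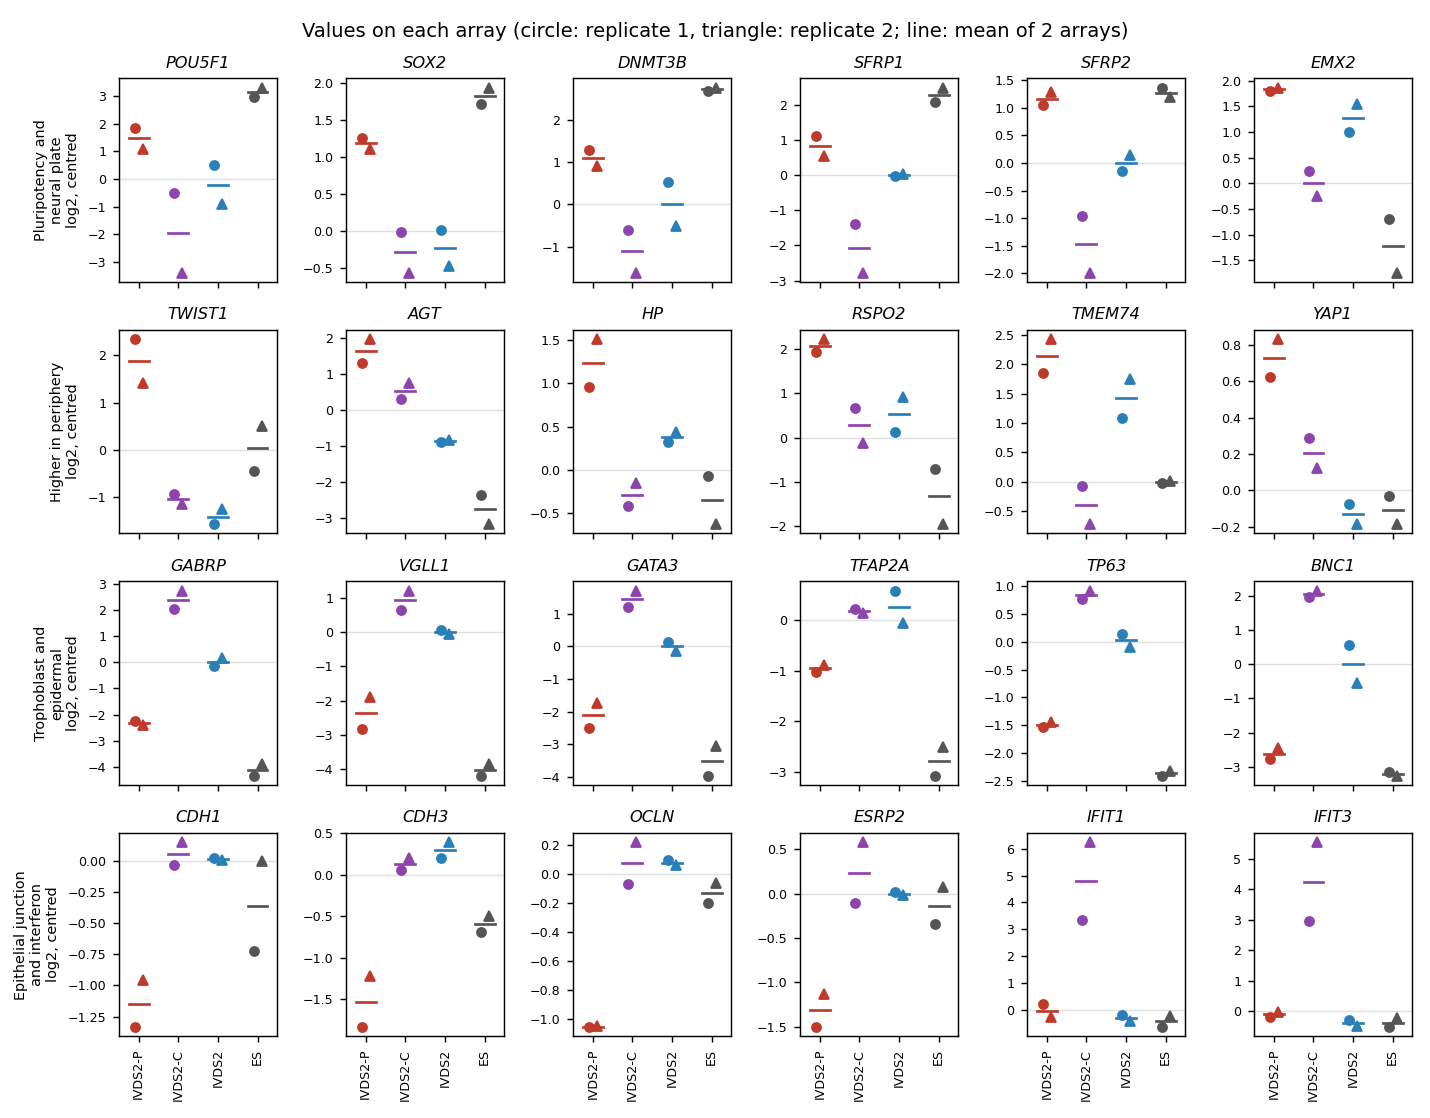
Each panel is 1 gene, with log2 expression relative to the median of the 10 arrays on the y axis and 4 groups on the x axis. Circles are replicate 1, triangles replicate 2 and lines the mean of 2 arrays. In the trophoblast and epidermal row IVDS2-P lies between IVDS2-C and ES, in the TWIST1 panel it lies above every other group, and for CDH3 and OCLN it is the lowest group.

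In 57 genes the periphery was higher than both ES cells and the centre, and 4 of the 57 (BMPER, HP, TMEM74 and PRPH) were called in both comparisons whichever array was left out. PRPH, the neuronal filament protein peripherin, was chosen after its values were seen. Those described here are 6 of the 57. The 57 came from 13191 tested genes, of which 6.31% were higher than in ES cells and 3.95% higher than in the centre. Both comparisons use the same 2 IVDS2-P arrays, so the 2 calls of a gene are not independent. TWIST1 read 2.34 and 1.41 in IVDS2-P, against -0.92 and -1.14 in IVDS2-C (2.91 ± 0.35, adjusted p = 0.00213) and -1.56 and -1.26 in IVDS2 (3.28, adjusted p = 0.0108). Its 2 IVDS2-P arrays were the highest of these 8. TMEM74, a membrane protein of lysosomes and autophagosomes, read 1.86 and 2.43 in IVDS2-P, against -0.06 and -0.72 in IVDS2-C (2.54 ± 0.28, adjusted p = 0.00127) and -0.02 and 0.02 in ES cells (2.15 ± 0.28, adjusted p = 0.00265). EMX2 was higher than in the centre by 1.83 ± 0.32 (adjusted p = 0.00902) and RSPO2 by 1.81 ± 0.42 (adjusted p = 0.0315), HP by 1.52 ± 0.23 (adjusted p = 0.00467) and AGT by 1.11 ± 0.29 (adjusted p = 0.0431). The difference from the centre was lost without IVDS2-C replicate 2, IVDS2-P replicate 1 or IVDS2-P replicate 2 for EMX2 (adjusted p = 0.0543 to 0.0732) and RSPO2 (adjusted p = 0.113 to 0.238), and when any 1 of the 4 arrays was left out for AGT (adjusted p = 0.0587 to 0.211). PAX6 (-0.02 ± 0.48), LMX1A (0.31 ± 0.22), MEIS1 (-0.12 ± 0.30), COLEC12 (0.06 ± 0.60), FZD10 (0.12 ± 0.47) and BMP2 (0.17 ± 0.24) gave no call between the areas (adjusted p = 0.986, 0.437, 0.851, 0.968, 0.91 and 0.732), which does not show that they are alike. Of 37 cell cycle genes 11 were higher in IVDS2-P than in IVDS2-C and 0 lower, with a median of 0.55, but 0 were called without IVDS2-C replicate 2, IVDS2-P replicate 1 or IVDS2-P replicate 2, 16 without IVDS2-C replicate 1 and 2 in the 4-array fit. Examples chosen after their values were seen are the helicase subunit MCM3 (1.11, adjusted p = 0.0194) and the sliding clamp PCNA (0.85, adjusted p = 0.0319).

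Against IVDS2 samples with no area named, limma called 57 genes higher (0.432%) and 125 lower (0.948%), and 1781 genes had an unadjusted p under 0.05. Without IVDS2-P replicate 1 it called 0 genes, with 1092 at an unadjusted p under 0.05 and a smallest adjusted p of 0.0501. Without IVDS2-P replicate 2 it called 76, without IVDS2 replicate 1 it called 96 and without IVDS2 replicate 2 it called 37. Each call named here was lost in at least the fit without IVDS2-P replicate 1. AGT read 1.33 and 1.97 in IVDS2-P, against -0.89 and -0.82 in IVDS2 (2.50, adjusted p = 0.0115, and 0.0534 in that fit). HOXA2 read 1.35 and 1.05, against -0.69 and -1.25 in IVDS2 (2.17, adjusted p = 0.0166, and 0.125 in that fit), and YAP1 was higher by 0.85 (adjusted p = 0.0183). GABRP was lower by -2.31 (adjusted p = 0.0108, and 0.0534 in that fit), HAPLN1 by -2.32 (adjusted p = 0.0115, and 0.0655 in that fit) and KRT8 by -1.89 (adjusted p = 0.0116). Trophoblast and amnion genes were lower for 13 of 26 and higher for 0, and junction genes lower for 12 of 30 and higher for 0. Without IVDS2-P replicate 1 both counts were 0, and with another of the 4 arrays left out they were 5 to 6 and 2 to 5. HAPLN1, 26.8-fold above ES cells in the periphery, was thus still lower there than in the centre (-1.67 ± 0.27, adjusted p = 0.00687, and 0.0539 without IVDS2-P replicate 1) and than in IVDS2.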

How the data were processed

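The deposited table held log2 expression of total RNA on Affymetrix rhesus macaque arrays, summarised with RMA by the authors per the submitters' processing notes, which give no version. The log base was inferred from the widest probe set, whose range of 9.51 would amount to 13.7 on the log2 scale were the table in natural logs. Before deposit every probe set was centred on its median over the 10 arrays (0 of 44294 medians beyond 1e-05), so no filter on dim probes and no renormalisation between arrays was applied. Control probe sets (84) were left out. Of 44210 probe sets tested, 22802 had 1 gene in the platform annotation, 316 several and 21092 none. The mean of a gene's probe sets gave 13191 genes, 7438 of them with 1 probe set. The number of arrays limits the precision.

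All 10 arrays, in 5 groups of 2 from the sample titles, entered 1 linear model with the group as factor (limma 3.58.1 in R 4.3.3). It left 5 residual degrees of freedom, to which moderation added 3.94, around a standard deviation of 0.142. The script was tested on simulated data. Named genes are the 20 largest rises and falls against ES cells (locus numbers left out) and up to 4 called members of each of 31 lists (763 of 1033 genes measured). They also include 25 measured landmarks, the 10 largest differences each way against IVDS2-C and up to 10 against IVDS2. The largest differences from ES cells and from IVDS2-C were taken among called genes whose arrays did not overlap between the groups. The members, lists and alternatives were chosen with earlier results of these data known, and any other gene was chosen after its values were seen. No list was tested as a set. Deviations of same-numbered arrays from their group means correlated over genes at -0.021 for IVDS2-P with ES, 0.224 with IVDS2-C and 0.277 with IVDS2. No label says that a number marks a shared batch, and 2 arrays a group do not settle it, so the samples are not treated as pairs. No promoter sequence was used here.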

Additional observations from a re-analysis of the deposited data

Results flagged for a closer look

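The colony centre and the colony periphery were each compared with ES cells, and their direct difference tests whether these effects differ. By that test 521 genes were higher and 744 lower in IVDS2-P than in IVDS2-C. In 14 of the 13191 tested genes the periphery and the centre were called in opposite directions against ES cells and also differed from each other in limma. All 14 IVDS2-P against ES calls were lost when at least 1 of the 4 arrays was left out, and 9 were lost in 3 or more of those 4 fits. IGFBP3 (adjusted p = 0.0964 to 0.166) and UTRN (adjusted p = 0.0605 to 0.183) were lost in each fit, CDH3 and LCP1 in 2, and SEMA3A, PPP1R13L and TWIST1 in 1. The IVDS2-P minus ES value was positive for TWIST1 (1.83), for ASRGL1 (0.58), an asparaginase, and for SOX3 (0.46), a factor of the neural plate. It was negative for IGFBP3 (-1.24), a binding protein of insulin-like growth factors, for LCP1 (-1.11), an actin bundler, for SEMA3A (-0.98), a secreted repellent of axons, for CDH3 (-0.93), and for the calcium-binding proteins SRI (-0.90), S100A6 (-0.81) and S100A10 (-0.61). It was also negative for the surface peptidase MME (-0.69), for PPP1R13L (-0.67), an inhibitor of p53, for UTRN (-0.49), the dystrophin relative utrophin, and for DOCK9 (-0.45), an activator of CDC42. LCP1 read -1.19 and -1.61 in IVDS2-P, against -0.49 and -0.09 in ES cells, and its IVDS2-P minus IVDS2-C value was -3.59 (adjusted p = 0.000183).

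Outside the gene comparison, 1316 of 21092 probe sets with no gene in the annotation used were called between IVDS2-P and ES cells, 924 of them higher and 392 lower. Over all 44210 probe sets tested 3339 were called, 2199 higher and 1140 lower. Among the 22802 probe sets with 1 gene 2011 were called, a larger share than among those with no gene.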

How the results depend on the processing

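Counts of calls were within 1.5 times those reported with each array centred on its median (906 rises and 546 falls against ES cells). The same held with a gene read from its most variable probe set alone (852 and 560). With the replicate block (898 and 642) it held except for IVDS2-P against IVDS2. None of the 172 genes named against ES cells changed sign where either fit called it. Changes of sign in genes called in neither fit were not counted. The labels do not pair the samples, and under the replicate block IVDS2-P against IVDS2 had 274 calls in place of 182. Fits of only the 4 arrays compared gave 466 rises and 286 falls against ES cells, and 174 higher and 440 lower genes against IVDS2-C. Among probe sets, 1514 were called against ES cells in such a fit, in place of 3339 in the fit of all arrays. In fits of this kind 30 of the named results lost their call. Leaving out 1 array at a time gave 223 to 1287 rises, 132 to 1419 falls and 818 to 7423 probe sets against ES cells, 57 to 792 higher and 271 to 820 lower genes against IVDS2-C, and 0 to 96 calls against IVDS2. Of 139 named genes called against ES cells, 71 were called under every alternative. The cause of these changes was not tested, and the fits with arrays left out also rest on fewer arrays.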

Other observations

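Matrix genes not described above went both ways in the periphery. Among 30 genes of basement membranes and their receptors 4 rose and 3 fell, but 2 and 0 did without ES replicate 2, 5 and 0 without IVDS2-P replicate 1, and 1 and 0 without IVDS2-P replicate 2. TGFBI, a matrix adhesion protein, read 0.16 and -0.83 in IVDS2-P, against -2.96 and -2.46 in ES cells (2.37 ± 0.32, adjusted p = 0.00319). Of 27 hyaluronan and proteoglycan genes HAPLN1 rose and 3 fell, the surface proteoglycan GPC4 (-1.44 ± 0.20, adjusted p = 0.00372) and the link proteins HAPLN4 (-1.34 ± 0.19, adjusted p = 0.00372) and HAPLN3 (-0.91 ± 0.20, adjusted p = 0.023), the last of which lost its call without ES replicate 2 (adjusted p = 0.128), IVDS2-P replicate 1 (adjusted p = 0.11) or IVDS2-P replicate 2 (adjusted p = 0.0888). Without ES replicate 1 the hyaluronan list had 7 falls, and 2 without any other 1 of the 4 arrays. Of 17 cholesterol synthesis genes 2 rose and 0 fell, with 4 rises without ES replicate 1, 0 without ES replicate 2 and 1 without either IVDS2-P array, and of 9 germ cell genes 0 were called by limma, with 3 at an unadjusted p under 0.05 and 1 call each way without ES replicate 1.

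The families that follow were chosen after their values were seen, and are given as counts beside 6.31% and 4.67% over all genes. Of 15 SOX factors 6 rose and 0 fell, of 33 collagens 8 rose and 2 fell, of 17 WNT ligands 4 rose and 1 fell, and of 18 protocadherins 4 rose and 0 fell. The rises called whichever array was left out were 3 SOX factors, 3 collagens, 1 WNT ligand and 0 protocadherins. COL2A1, the collagen of cartilage and notochord, rose by 2.67 ± 0.30 (adjusted p = 0.00184). Of 30 keratins 0 rose and 0 fell, of 16 claudins 0 rose and 1 fell, and of 3 ZIC factors 2 rose and 0 fell. Zinc finger genes named ZNF had 35 rises and 3 falls among 276, of which 5 and 1 were called whichever array was left out, and solute carriers 12 rises and 15 falls among 255, of which 2 and 3 were. ABCC2, an organic anion pump of liver and kidney, read 0.68 and 0.29 in IVDS2-P, against 2.54 and 2.30 in ES cells (-1.94 ± 0.16, adjusted p = 0.000418).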
